A study of Mus musculus with 2 samples.

Results

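The nuclear-encoded genes of the mitochondrial respiratory chain were followed through the cells of mouse alveolar bone, in which the roots of the teeth sit. They were chosen by name alone: every symbol that begins with Ndufa, Ndufb, Ndufc, Ndufs, Ndufv, Uqcr or Atp5, or with Cox and a digit from 4 to 8, with processed pseudogenes left out. This gave 97 symbols of the 56893 in the files. They comprise 44 genes named as subunits of complex I, 8 of complex III, 19 of complex IV, 18 of the ATP synthase (complex V) and 8 assembly factors of complex I, the Ndufaf genes. Atp5po has more than 1 entry in the files, and its counts were summed.

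The tissue came from a study of orthodontic tooth movement in healthy C57BL/6J mice of 6 to 8 weeks and 20 to 25 g. In the force group a nickel-titanium coil spring pulled the maxillary right first molar at a constant 25 g, and in the control group the spring was attached without force. The molar was extracted on day 7, and bone within 1 mm of the socket was collected from 12 mice, with 6 mice pooled per group. Cells were released by 60 min of digestion with a bone dissociation solution, red cells were lysed, and a single-cell RNA library was made from each pool. The labels tie neither library to a group, so the 2 libraries go by number here, and no effect of force was computed. Each library is 1 pool without a replicate, so no test was made, and what is given is how far both libraries place a gene alike.

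As background, complex I takes electrons from NADH, complex III passes them from ubiquinol to cytochrome c, and complex IV hands them to oxygen, while the ATP synthase uses the proton gradient that these pumps build. The mitochondrial genome encodes 13 of the proteins, whose genes carry the prefix mt-, and the nucleus encodes the others, so that each of these complexes joins products of both genomes. Osteoclasts, the multinucleated cells that resorb bone, are known for being rich in mitochondria. Neutrophils are known for having few of them and for relying on glycolysis.

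Library 1 gave 8477 cells with a median of 3665 unique molecular identifiers (UMIs, each counting 1 captured RNA molecule), and library 2 gave 11668 cells with a median of 4625. A total of 64 cell barcodes occurred in both libraries. The cells fell into 28 clusters, formed without the genes described here, the mt- genes and the other gene lists used below. Of these, 26 were named from marker genes, which gave 22 named classes, and 2 unnamed clusters are called by their leading gene. A class name says no more than that these markers were raised. All 8 osteoclast markers were raised in the osteoclast-like class, which held 37 cells in library 1 and 38 in library 2. The osteocyte-like class rests on 4 of 6 markers, among them Dmp1 at 1462 and 1081 CPM (UMIs scaled to 1000000 UMIs of named genes), whereas Sost, a gene of embedded osteocytes, lay at 2.78 and 2.90 and Fgf23 at 1.67 and 1.66. In the mature B cell-like class Igha and Jchain led, genes of antibody-secreting cells.

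The summed level of the 97 genes is given in CPM for each class and library, with exact Poisson intervals at 95% that cover counting error only. The level was highest in osteoclast-like cells, at 40827 CPM (40162 to 41500) in library 1 and 48443 CPM (47960 to 48928) in library 2. Megakaryocyte or platelet-like cells followed at 30502 and 33488 CPM. Granulocyte-monocyte progenitor-like cells came next with 21854 and 25482 CPM. Both libraries thus share the 3 classes at the top. The lowest level was that of mature neutrophil-like cells, at 5384 CPM (5315 to 5453) and 6137 CPM (6053 to 6221). From the highest to the lowest class the summed level fell 7.58-fold in library 1 and 7.89-fold in library 2, around a median class of 13948 and 13845 CPM.

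**Figure D1:**
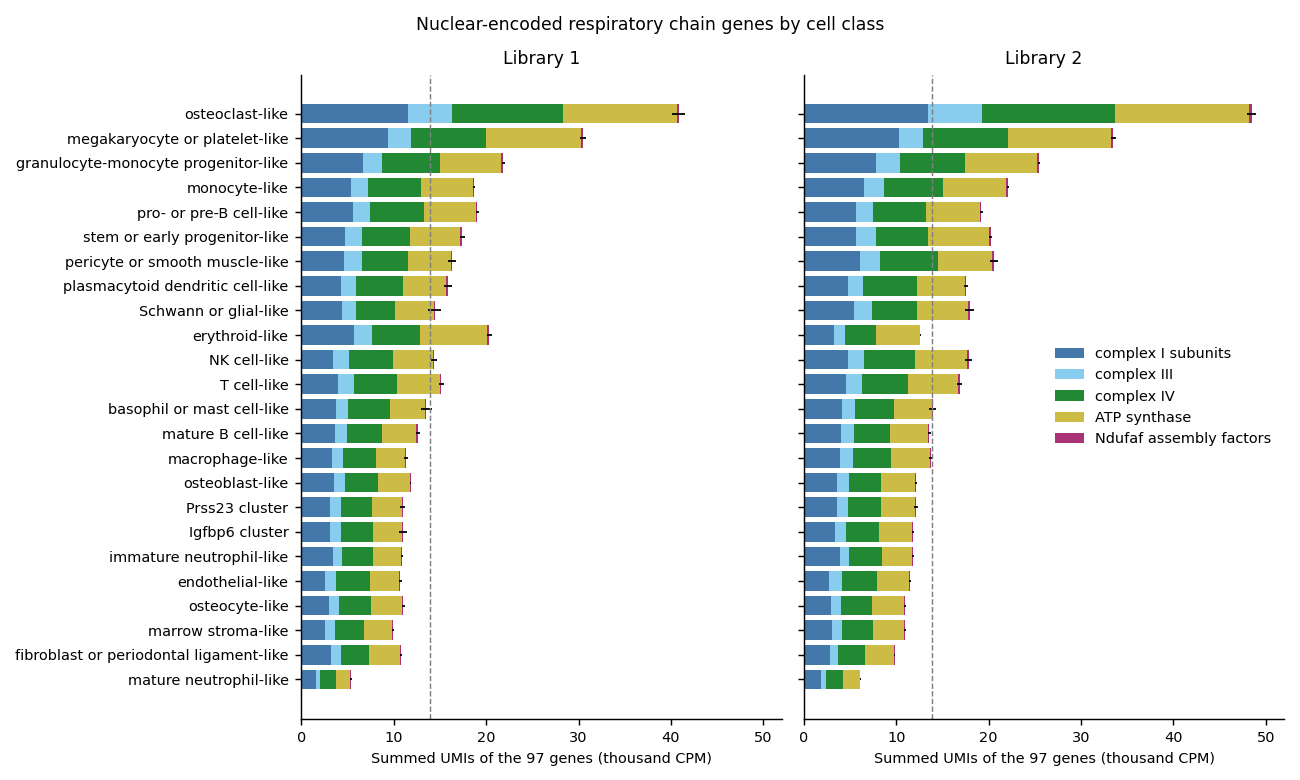
Summed UMIs of the 97 genes in CPM (axis divided by 1000) for each of 24 classes, 1 panel per library, with bars divided by complex, black bars for the 95% Poisson interval of the sum and a dashed line at the median class. Osteoclast-like cells lead at 40827 and 48443 CPM, and mature neutrophil-like cells are lowest at 5384 and 6137 CPM.

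Across the 24 classes the summed levels of the libraries correlated with r = 0.944, as a description over classes that share a library and its depth. Between neighbours in the order, the intervals overlapped in 10 of 23 pairs in library 1 and in 9 of 23 in library 2, so the middle of the order is not resolved there. The summed level correlated little with the median UMIs per cell of a class, with r = 0.065 and 0.268. Barcodes with 10 to 100 UMIs, which hold mainly free RNA, carried these genes at 12449 and 14735 CPM. That is above mature neutrophil-like cells and below osteoclast-like cells in both libraries.

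Of the 97 genes, 81 were measured, meaning that they reached 10 CPM over all cells of each library, as did 8578 genes of all kinds. A filter of this kind favours genes that are high in abundant classes, so the counts over the 81 describe them and support nothing further. The 16 others were 6 of complex I (Ndufa11b, Ndufa4l2, Ndufb11b, Ndufb4b, Ndufb4c and Ndufs6b), 7 of complex IV (Cox4i2, Cox6a2, Cox6c2, Cox7a1, Cox7b2, Cox8b and Cox8c) and 3 assembly factors (Ndufaf1, Ndufaf5 and Ndufaf6). Cox8b and Ndufb4c had no UMI in either library, and 94 of the 97 had at least 1 UMI in each. The counts of near copies (Ndufb4 with Ndufb4b and Ndufb4c, Cox6c with Cox6c2, Ndufa11 with Ndufa11b, and Atp5mc1, Atp5mc2 and Atp5mc3) are uncertain, since such copies can split reads. UMIs are not divided by transcript length, so each gene is compared across classes and not with other genes.

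A measured gene was called higher or lower in a class if it differed at least 1.5-fold from its own median class, in the same direction in both libraries. In osteoclast-like cells 75 of the 81 were higher and none was lower, where 20.2% of all measured genes were higher. Over the 81 genes the median log2 ratio to the median class was 1.60 in library 1 and 1.73 in library 2, beside 0.061 and 0.0013 over all measured genes. The higher genes included all 38 measured complex I subunits, all 8 of complex III, 11 of 12 of complex IV and 17 of 18 of the ATP synthase, but 1 of 5 assembly factors. The median UMIs of these cells were 5641 and 13769, and their median mitochondrial share of UMIs, 4.23% and 4.04%, was above the 1.42% and 1.81% of all cells. The count was 68 when each cell was thinned to 1000 UMIs, 74 with at least 2000 UMIs per cell or with at most 10% mitochondrial UMIs, and 75 with the mt-, ribosomal, haemoglobin and immunoglobulin genes left out of the total. The share of all measured genes was not computed for these settings.

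Uqcr11, a small subunit of complex III, had the largest ratio among the genes that peaked in osteoclast-like cells in both libraries. It lay at 938 CPM (840 to 1045) in library 1 and 1237 CPM (1161 to 1317) in library 2, which is 8.19-fold and 8.90-fold the median class at 115 and 139 CPM. Megakaryocyte-like cells held the next level of Uqcr11, at 439 and 478 CPM, outside these intervals. Uqcr10, another small subunit of the same complex, reached 1089 and 1160 CPM in osteoclast-like cells, 5.49-fold and 5.87-fold its median class. For Uqcrq the values were 694 and 867 CPM, against a median class of 173 and 191 CPM. Complex III made up 11.8% and 12% of the summed level in osteoclast-like cells, its largest share in any class, and 8.09% and 7.97% in megakaryocyte-like cells, its smallest. Complex III thus took unequal shares of the sum in the classes that lead the order.

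Cox4i1, the regulatory subunit of complex IV that most tissues use, stood at 3148 and 3526 CPM in osteoclast-like cells. Its median class was at 1148 and 997 CPM, and mature neutrophil-like cells held 430 and 428 CPM. Atp5f1b, the catalytic beta subunit of the ATP synthase, went from 1359 and 1634 CPM in osteoclast-like cells to 102 and 112 CPM in mature neutrophil-like cells. Ndufa4, named with complex I but known as a subunit of complex IV, went from 1052 and 1487 CPM to 48.9 and 63.8 CPM between the same classes. For each of these genes the libraries gave the same highest and lowest class.

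The other abundant subunits kept this order to a lesser degree. Cox6a1, a complex IV subunit, went from 1092 and 1354 CPM in osteoclast-like cells to 165 and 192 CPM in mature neutrophil-like cells, and Cox8a, another, from 1237 and 1472 CPM to 271 and 328 CPM. Atp5mg, a membrane subunit of the ATP synthase, went from 1004 and 1305 CPM to 228 and 266 CPM, and Atp5f1e, the epsilon subunit of its rotor, from 947 and 1073 CPM to 190 and 240 CPM. Cox8a and Atp5mg missed the limit for a lower call in mature neutrophil-like cells, set against median classes of 407 and 449 CPM and of 307 and 351 CPM. Ndufb1, a membrane-arm subunit of complex I, held 586 and 717 CPM in osteoclast-like cells, 636 and 652 CPM in megakaryocyte-like cells and 145 and 206 CPM in mature neutrophil-like cells, so the top of its order changed between the libraries.

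**Figure D2:**
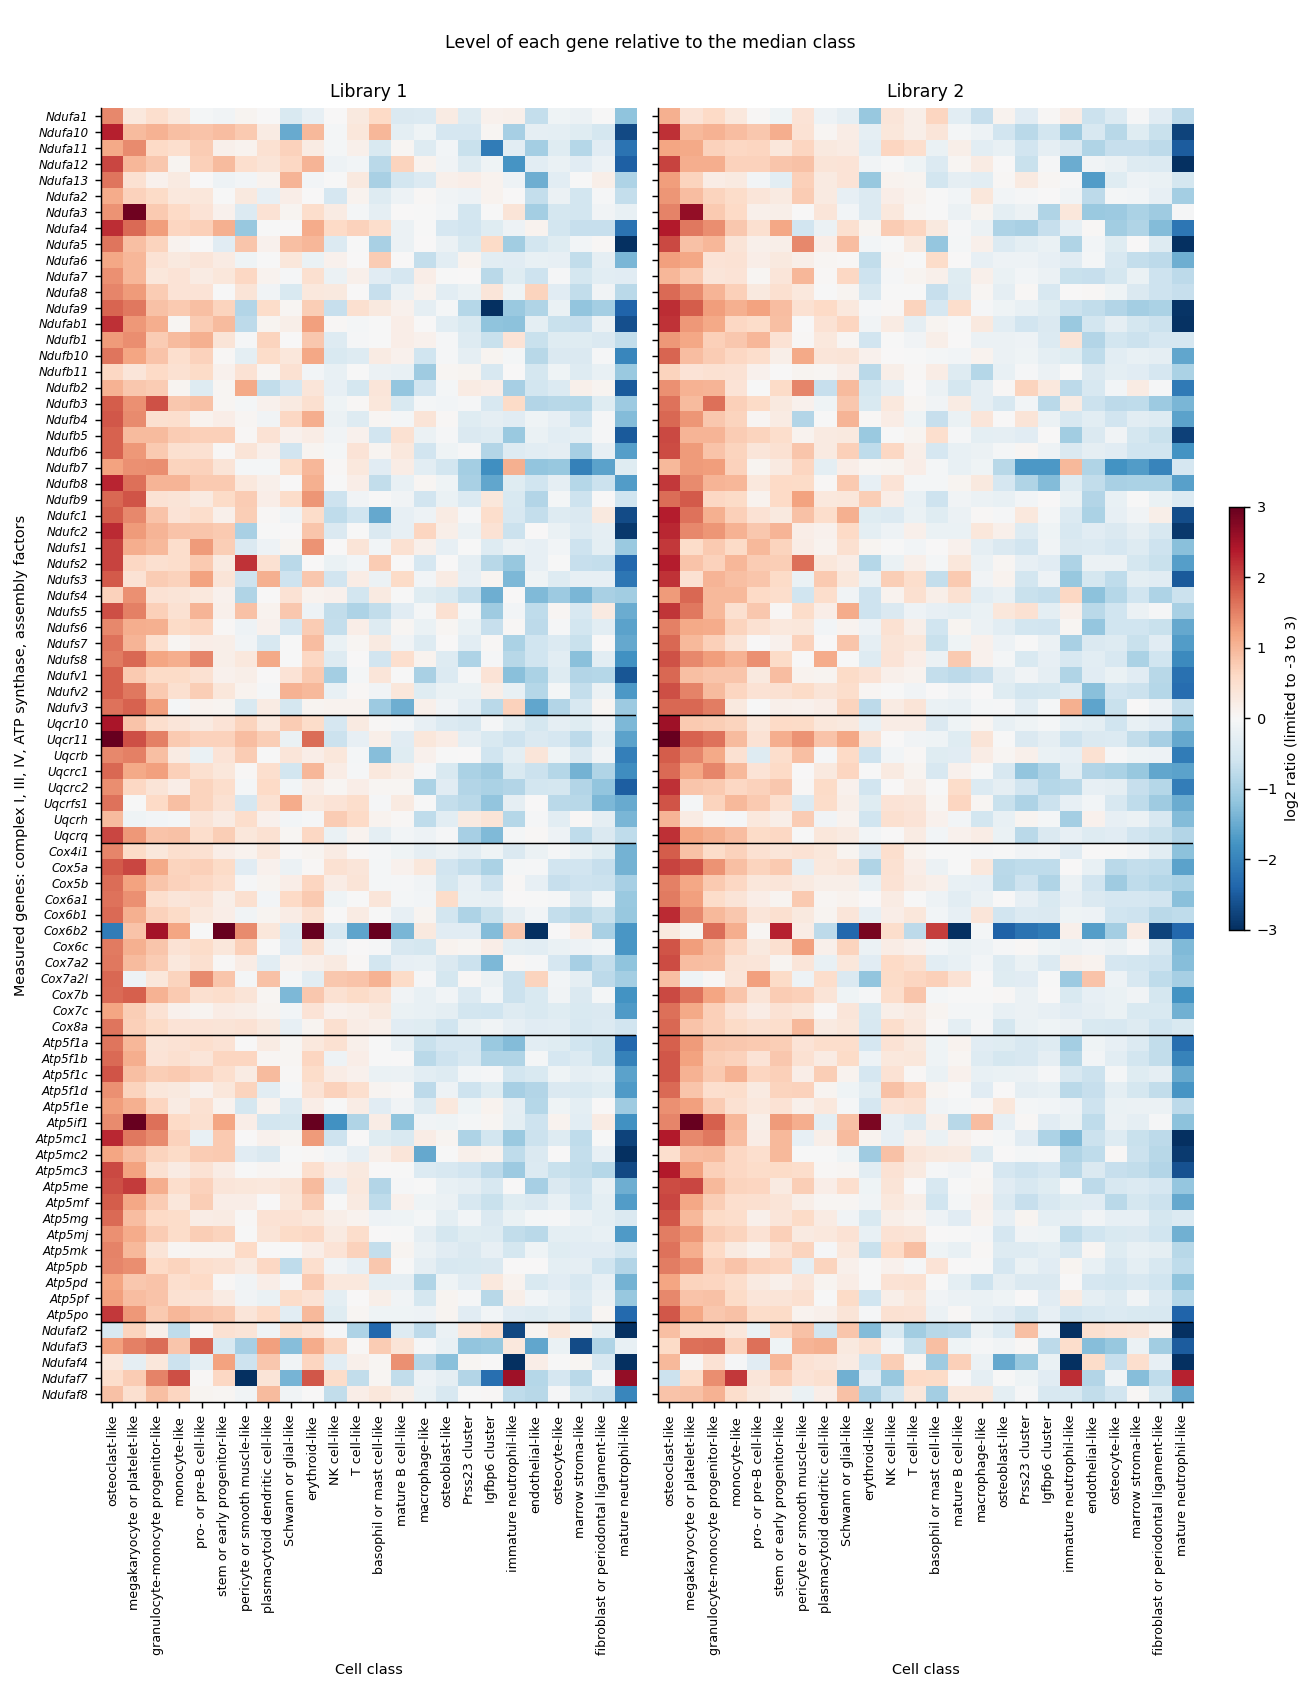
Log2 ratio of each of the 81 measured genes to its own median class (colour, limited to -3 to 3) in 24 classes, 1 panel per library, with lines between complex I, III, IV, ATP synthase and assembly factors. In the osteoclast-like column 75 genes were called higher and in the mature neutrophil-like column 70 lower, with Ndufaf7, Atp5if1, Ndufa3 and Cox6b2 following other patterns.

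In megakaryocyte or platelet-like cells 67 of the 81 were higher and none was lower, where 23.7% of all measured genes were higher. All 18 measured ATP synthase genes were among them, with 33 of 38 complex I subunits, 6 of 8 of complex III and 9 of 12 of complex IV. Atp5if1, which encodes the inhibitor that stops the ATP synthase from running backwards, had the largest ratio among the 66 measured genes that peaked in the same class in both libraries, ranked by the lower of the libraries. It reached 1986 CPM (1911 to 2062) and 1819 CPM (1762 to 1877) in megakaryocyte-like cells, 10.8-fold and 9.88-fold a median class of 184 CPM. Erythroid-like cells held the next level of Atp5if1, at 1655 and 1311 CPM, while osteoclast-like cells held 492 and 511 CPM. Haemoglobin UMIs count in the erythroid total and lower its CPM. Whether megakaryocyte-like cells stay above erythroid-like cells for Atp5if1 without them was not computed. Ndufa3, a supernumerary subunit of complex I, likewise peaked in that class, at 1236 and 1317 CPM, 7.54-fold and 6.23-fold its median class. In osteoclast-like cells Ndufa3 reached 418 and 593 CPM. Uqcrh and Cox7a2l were not called there: Uqcrh stood at 419 and 543 CPM against a median class of 460 and 458, and Cox7a2l at 171 and 192 CPM against 190 and 210.

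In granulocyte-monocyte progenitor-like cells 54 of the 81 were higher and none was lower, where 30.9% of all measured genes were higher. With a limit of 2-fold in place of 1.5-fold, 19 of the 81 were higher there, where 16.4% of all measured genes were, and 42 in megakaryocyte-like cells, where 14% were. Ndufb3 was the 1 measured gene with its highest level in these progenitors in both libraries, at 308 and 323 CPM against a median class of 82.6 and 103. Its osteoclast-like level, 293 and 322 CPM, lay within the counting interval of the progenitor level.

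In mature neutrophil-like cells 70 of the 81 were lower and 1 was higher, where 49.3% of all measured genes were lower. The median log2 ratio was -1.61 and -1.53 for the members, beside -0.67 and -0.88 over all measured genes. The lower genes comprised 32 of 38 complex I subunits, all 8 of complex III, 11 of 12 of complex IV, 16 of 18 of the ATP synthase and 3 of 5 assembly factors. Those that missed the limit in at least 1 library were Atp5mg, Atp5mk, Cox8a, Ndufa13, Ndufa3, Ndufa7, Ndufaf3, Ndufb1, Ndufb7 and Ndufb9. Ndufa3 stood at 141 and 206 CPM against a median class of 164 and 212. The depth of these cells was low, with median UMIs of 2210 and 2749, and their median mitochondrial share was 0.854% and 0.864%. The count was 67 when each cell was thinned to 1000 UMIs, for which the share of all measured genes was not computed. In immature neutrophil-like cells 24 of the 81 were lower, where 36.1% of all measured genes were lower, and 3 were higher, where 16.7% were.

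Ndufaf7, a methyltransferase that acts in the assembly of complex I, was the 1 measured gene whose highest level lay in mature neutrophil-like cells in both libraries. It reached 73.9 CPM (66.0 to 82.3) and 48.5 CPM (41.3 to 56.6) there, 6.22-fold and 4.92-fold its median class. Immature neutrophil-like cells held Ndufaf7 at 68.7 and 45.7 CPM, within those intervals, and monocyte-like cells at 45.3 and 42.7 CPM. Osteoclast-like cells had 6 and 5 UMIs of Ndufaf7, which is 17.1 and 6.28 CPM. Its correlation over classes with the summed level of the other members was 0.075 and -0.024, the lowest of the measured genes. Reads of a gene that overlaps it cannot be told apart here, since the counting is not given in the sources used here.

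Within the neutrophil lineage the level declined from cluster to cluster, in the order that the markers of the clusters give. No lineage was traced. The progenitor-like cluster led by Elane stood at 21854 and 25482 CPM, and the immature cluster led by Camp at 12629 and 13836 CPM. The immature cluster led by Ifitm6 followed at 8424 and 9036 CPM. The mature clusters led by Retnlg and by Hcar2 held 5557 and 6225 CPM and 5190 and 5774 CPM. From the first to the last cluster the fold was 4.21 and 4.41, and no interval of a cluster overlapped that of the next. The summed mt- protein genes fell further along the same clusters, 11.7-fold and 11.0-fold. Median UMIs per cell fell with them, from 15310 and 19065 to 2053 and 2287, and the part of depth in the decline was not tested.

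**Figure D3:**
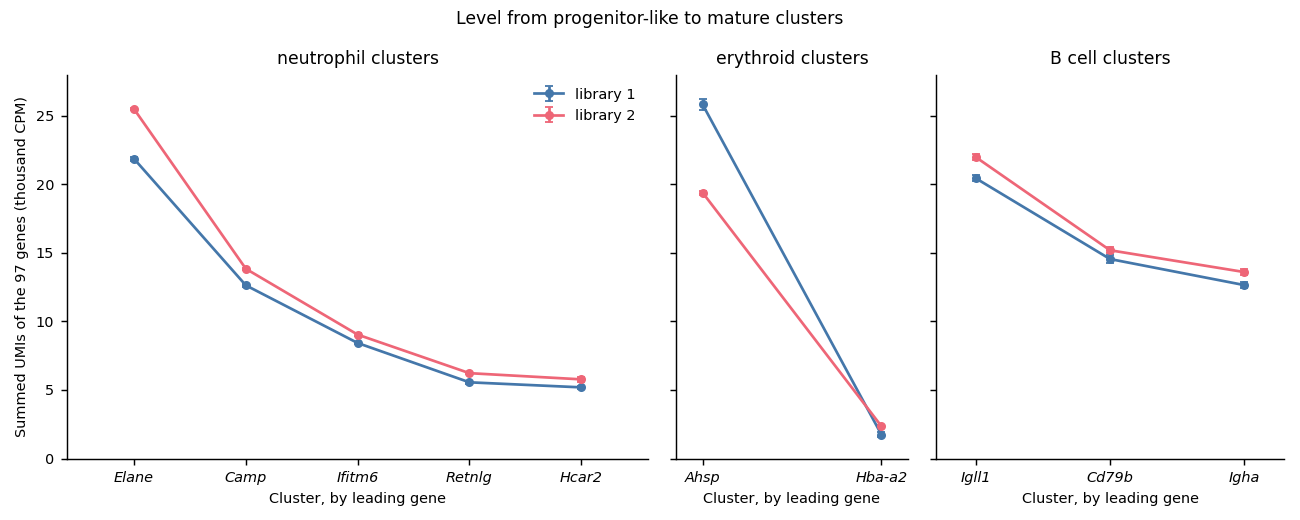
Summed UMIs of the 97 genes in CPM (axis divided by 1000) for clusters ordered by their markers from progenitor-like to mature, with 1 line per library and 95% Poisson intervals. The neutrophil clusters fall from 21854 and 25482 CPM to 5190 and 5774 CPM, the erythroid clusters from 25827 and 19396 CPM to 1752 and 2358 CPM.

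Erythroid and B-lineage clusters showed the same order. The erythroid cluster led by Ahsp stood at 25827 and 19396 CPM, and the late one led by Hba-a2 at 1752 and 2358 CPM, a fold of 14.7 and 8.23. In the late cluster the mt-, ribosomal, haemoglobin and immunoglobulin genes together held 85.9% and 85.4% of UMIs. With these left out of the total the fold was 3.14 and 2.21. The late cluster made up 53 of 158 erythroid-like cells in library 1 and 394 of 889 in library 2, beside a summed level of the whole class of 20354 and 12615 CPM. Red cells had been lysed before loading. In the B lineage the pro-B-type cluster led by Igll1 held 20431 and 21974 CPM, the cluster led by Cd79b 14546 and 15188 CPM, and the mature class 12650 and 13599 CPM.

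Cells of bone and stroma lay below the median class. Osteoblast-like cells stood at 11833 and 12136 CPM, osteocyte-like cells at 11020 and 10934, marrow stroma-like cells at 9907 and 10958, and fibroblast or periodontal ligament-like cells at 10781 and 9818. None of the 81 genes was higher in any of these 4 classes, where 11.8% (osteoblast-like), 14.7% (osteocyte-like), 17% (marrow stroma-like) and 13.4% (fibroblast-like) of all measured genes were higher. In osteoblast-like cells 2 of the 81 were lower, where 36.3% of all measured genes were lower, and in osteocyte-like cells 8 were lower, where 18.5% were. In marrow stroma-like cells 23 were lower, where 18.1% of all measured genes were lower, and in the fibroblast class 20 were lower, where 24.8% were. The fibroblast share, 24.7%, is at the background and is no result about these genes. Low levels were not particular to bone and stroma. Endothelial-like cells stood at 10719 CPM in library 1. In them 30 of the 81 were lower (37.0%), where 16.5% of all measured genes were lower, and 1 was higher, where 18.5% were. The marrow stroma count was 10 with cells thinned to 1000 UMIs, 8 with up to 50% mitochondrial UMIs, 7 with doublets kept or at clustering resolution 2.0, 6 with a minimum of 800 UMIs and 3 with a 2-fold limit, where 8.74% of all measured genes were lower. The fibroblast count was 9 with thinned cells, 33 with cells classed by marker list and 2 with a 2-fold limit, where 11.2% were lower. Apart from the 2-fold limit, the share of all measured genes was not computed for these settings, so these counts have no background. Ndufb7, a complex I subunit, held 30.6 and 45.5 CPM in marrow stroma-like cells against a median class of 124 and 146, and 261 and 286 CPM in immature neutrophil-like cells.

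Most members kept a common pattern. Of the 81 measured genes, 66 peaked in the same class in both libraries, and in 57 of these it was the osteoclast-like class. It was the megakaryocyte-like class for 5, and for 1 gene each it was the progenitors (Ndufb3), the pericyte or smooth muscle-like cells (Ndufb2), the erythroid-like cells (Cox6b2) and the mature neutrophil-like cells (Ndufaf7). Most also varied together: the correlation of a gene with the summed level of the other members, over 24 classes of 1 library, was at least 0.5 in both libraries for 77 genes, and the median of the lower value was 0.862. The classes of a library share its depth and preparation, so no test is attached. Among these 66 genes the smallest ratios of the highest to the median class were those of Ndufb11, at 1.54-fold and 1.58-fold in osteoclast-like cells, and of Uqcrh, the hinge protein of complex III, at 1.92-fold and 2.04-fold. Atp5mc2, 1 of 3 genes for the c-ring subunit of the ATP synthase, peaked in different classes, at 62.6 CPM in osteoclast-like cells in library 1 and at 47.4 CPM in stem or early progenitor-like cells in library 2, against a median class of 27.7 and 24.1 CPM.

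Of the 5 measured assembly factors 1 was higher in osteoclast-like cells, where 20.2% of all measured genes were higher. In the progenitors 3 were higher, where 30.9% were, and in mature neutrophil-like cells 3 were lower, where 49.3% were. With 5 genes no result is read from these counts. Ndufaf2 and Ndufaf4, 2 chaperones of complex I, were lowest in neutrophils: Ndufaf4 lay at 1.27 and 1.57 CPM in immature and 2.05 and 2.41 CPM in mature neutrophil-like cells, against a median class of 29.6 and 30.7 CPM. Ndufaf2 lay at 2.95 and 0.602 CPM in mature neutrophil-like cells, against 31.2 and 30.7 CPM. These values rest on between 2 and 19 UMIs per class and library. The highest Ndufaf4 levels were in mature B cell-like cells in library 1, at 77.0 CPM, and in stem or early progenitor-like cells in library 2, at 61.3 CPM. Ndufaf2 reached at most 1.59-fold and 1.88-fold its median class, and Ndufaf8, also of complex I assembly, at most 1.94-fold and 2.07-fold.

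The 13 mt- protein genes were set beside the nuclear genes of the same complexes. Per UMI of the 97 nuclear genes, the median class held 0.599 mt- protein UMIs in library 1 and 0.868 in library 2. Library 2 had the higher ratio in every class but the Schwann or glial-like one (1.18 and 1.13), and its barcodes with 10 to 100 UMIs did too, at 0.585 beside 0.381. The ratio was lowest in mature neutrophil-like cells, at 0.206 (0.200 to 0.212) and 0.249 (0.242 to 0.257), followed by immature neutrophil-like cells at 0.308 and 0.373. Mature neutrophil-like cells thus stood low for both sets, and lower for the mt- protein genes. The mitochondrial ribosomal RNA genes mt-Rnr1 and mt-Rnr2 are outside this sum and did not follow it. In library 1 they held 8641 CPM in mature neutrophil-like cells, beside 4332 CPM in the progenitors and 10820 CPM over all cells. Relative to the median class the mature neutrophil ratio was 0.344 and 0.287, and between 0.160 and 0.433 under the other ways of processing.

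Megakaryocyte-like cells had a low ratio as well, 0.339 and 0.467, although their nuclear level was high. Their summed mt- protein level was 10347 and 15631 CPM, and none of the 12 measured mt- genes was called in either direction, whereas 67 of the 81 nuclear genes were higher. Low ratios were not particular to neutrophils and megakaryocytes. In library 1 erythroid-like cells stood at 0.408 and NK cell-like cells at 0.416. In library 2 the erythroid clusters led by Ahsp and Hba-a2 stood at 0.450 and 0.468. In osteoclast-like cells both sets were high: 12 of 12 measured mt- genes were higher, and the ratio, 0.571 and 0.800, was near the median class. The cells of bone and stroma had ratios above the median class, with 0.866 and 1.36 in osteoblast-like, 0.976 and 1.51 in marrow stroma-like and 1.13 and 1.45 in fibroblast-like cells. Their mt- protein level, 10253 and 16485 CPM in osteoblast-like, 9673 and 16492 in marrow stroma-like and 12147 and 14252 in fibroblast-like cells, was far from the 1108 and 1530 CPM of mature neutrophil-like cells. Over the 24 classes the nuclear and the mt- sums correlated with r = 0.663 and 0.642, as a description.

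**Figure D4:**
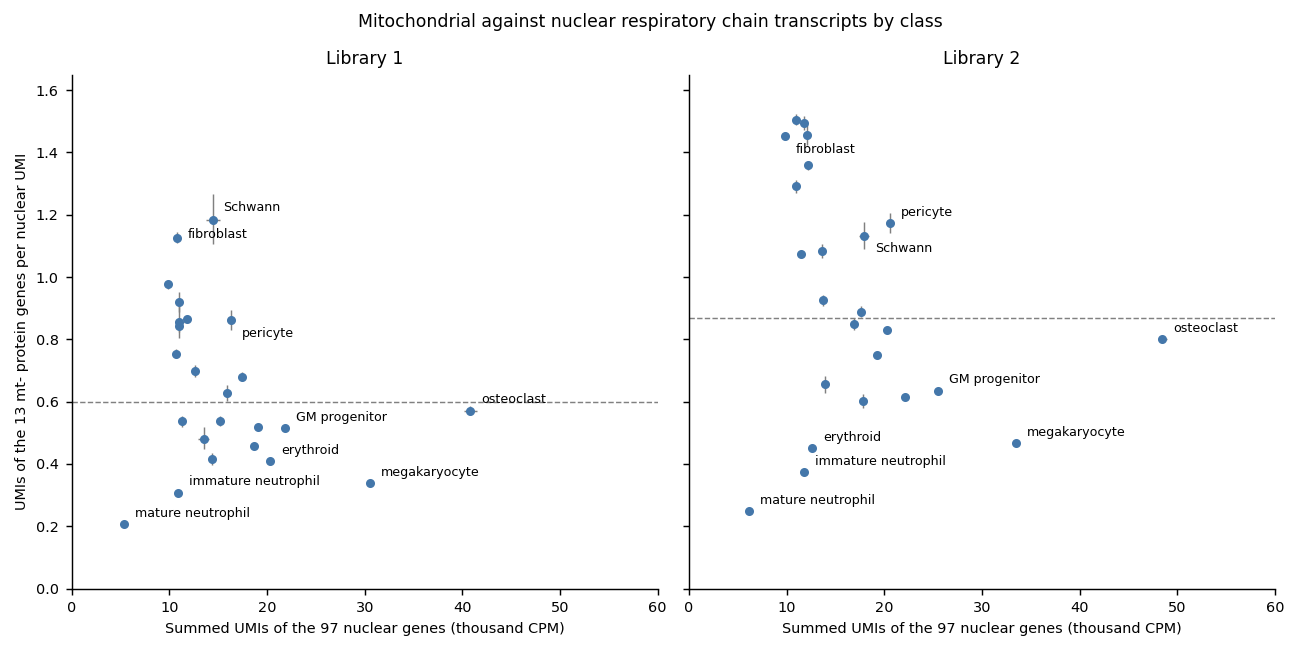
UMIs of the 13 mt- protein genes per UMI of the 97 nuclear genes (vertical) against the summed nuclear level in CPM, divided by 1000 (horizontal), 1 point per class with 95% counting intervals and a dashed line at the median class. Mature neutrophil-like cells lie lowest at 0.206 and 0.249, and osteoclast-like cells lie far to the right near the dashed line, at 0.571 and 0.800.

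The low neutrophil ratio was seen within each complex. For complex I, 7 mt-Nd genes gave 0.224 and 0.258 UMIs per nuclear UMI in mature neutrophil-like cells, against a median class of 0.856 and 1.31. The ATP synthase, with mt-Atp6 and mt-Atp8, gave 0.105 and 0.127 against 0.291 and 0.417. In complex IV, whose 3 core subunits are mt-Co1, mt-Co2 and mt-Co3, the values were 0.258 and 0.308 against 0.642 and 0.841. For complex III, where mt-Cytb is the only mitochondrial gene, they were 0.317 and 0.437 against 0.739 and 1.24. Immature neutrophil-like cells were nearer to the median class for complex IV, at 0.449 and 0.529, than for complex I, at 0.269 and 0.319.

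Some subunits exist as isoforms that are known to be used by few tissues. Cox4i2, the counterpart of Cox4i1 associated with low oxygen, had 99 and 90 UMIs in pericyte or smooth muscle-like cells, which is 270 CPM (220 to 329) and 195 CPM (157 to 240). It made up 17.9% (14.8 to 21.4) and 12.7% (10.3 to 15.4) of the Cox4i1 and Cox4i2 UMIs there, with exact binomial intervals (Clopper-Pearson, 95%) and without correction for transcript length. The unnamed cluster led by Igfbp6 came next for Cox4i2, with 59.3 and 91.2 CPM, and the other unnamed cluster, osteocyte-like, marrow stroma-like and fibroblast-like cells also held it. The pericyte-like class held 20.1% and 12.6% of the Cox4i2 UMIs of all cells. Of the pericyte-like cells 53.2% and 39.7% had a Cox4i2 UMI (27.8% and 16.8% when thinned to 1000 UMIs), at a median of 3639 and 3113 UMIs per cell. Mature neutrophil-like cells, taken as the background at a median of 2210 and 2749 UMIs, had a Cox4i2 UMI in 1 of 1738 cells and in 0 of 1038, up to 0.320% and 0.355% by the interval.

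Ndufa4l2, the counterpart of Ndufa4 that is also known from hypoxia, was highest in the same class, at 311 CPM (257 to 374) and 167 CPM (132 to 208). There it made up 75.0% (67.3 to 81.7) of the Ndufa4 and Ndufa4l2 UMIs in library 1 and 46.7% (38.9 to 54.6) in library 2. It had a UMI in 48.1% and 26.7% of pericyte-like cells, 24.1% and 13.7% when thinned, against 1 cell in each library among mature neutrophil-like cells. The next class for Ndufa4l2 was osteoblast-like in library 1, at 8.63 CPM, and the cluster led by Igfbp6 in library 2, at 35.0 CPM. Endothelial-like cells, the other cells of the vessel wall, held 1.40 and 1.71 CPM.

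Cox6a2, known as the heart and skeletal muscle form of Cox6a1, was highest in plasmacytoid dendritic cell-like cells, at 365 CPM (308 to 431) and 1011 CPM (957 to 1067). It is among the 10 genes that lead this cluster, although it took no part in forming or naming it. That rank and this level rest on the same UMIs, so neither adds to the other. Within that class it made up 52.4% (46.3 to 58.5) and 68.0% (65.9 to 70.1) of the Cox6a1 and Cox6a2 UMIs. Of the cells 49.4% and 81.6% had a Cox6a2 UMI, 24.7% and 55.2% when thinned, while 0.288% and 0 of the mature neutrophil-like cells did. Stem or early progenitor-like cells were next at 26.3 and 59.5 CPM.

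Cox6b2, known as the testis form of Cox6b1, was highest in erythroid-like cells, at 144 CPM (121 to 172) and 66.6 CPM (60.1 to 73.5), followed by stem or early progenitor-like cells at 67.0 and 45.8 CPM. It made up 26.2% and 21.0% of the Cox6b1 and Cox6b2 UMIs of the erythroid class. A Cox6b2 UMI was found in 25.3% and 16.2% of erythroid-like cells and in 26.5% and 25.1% of the deeper stem or early progenitor-like cells. With cells thinned to 1000 UMIs the shares were 10.1% and 3.49% against 4.64% and 5.71%, so in library 2 they go against the order by CPM and no order is read from them. Cox6b2 had a UMI in 0.460% and 0.578% of mature neutrophil-like cells. In osteoclast-like cells, which lead most members, Cox6b2 had 0 and 9 UMIs. Cox7a1, Cox7b2, Cox8b and Cox8c, the other muscle and germ cell forms, had between 0 and 106 UMIs in all cells of a library, and no order was read from them.

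**Figure D5:**
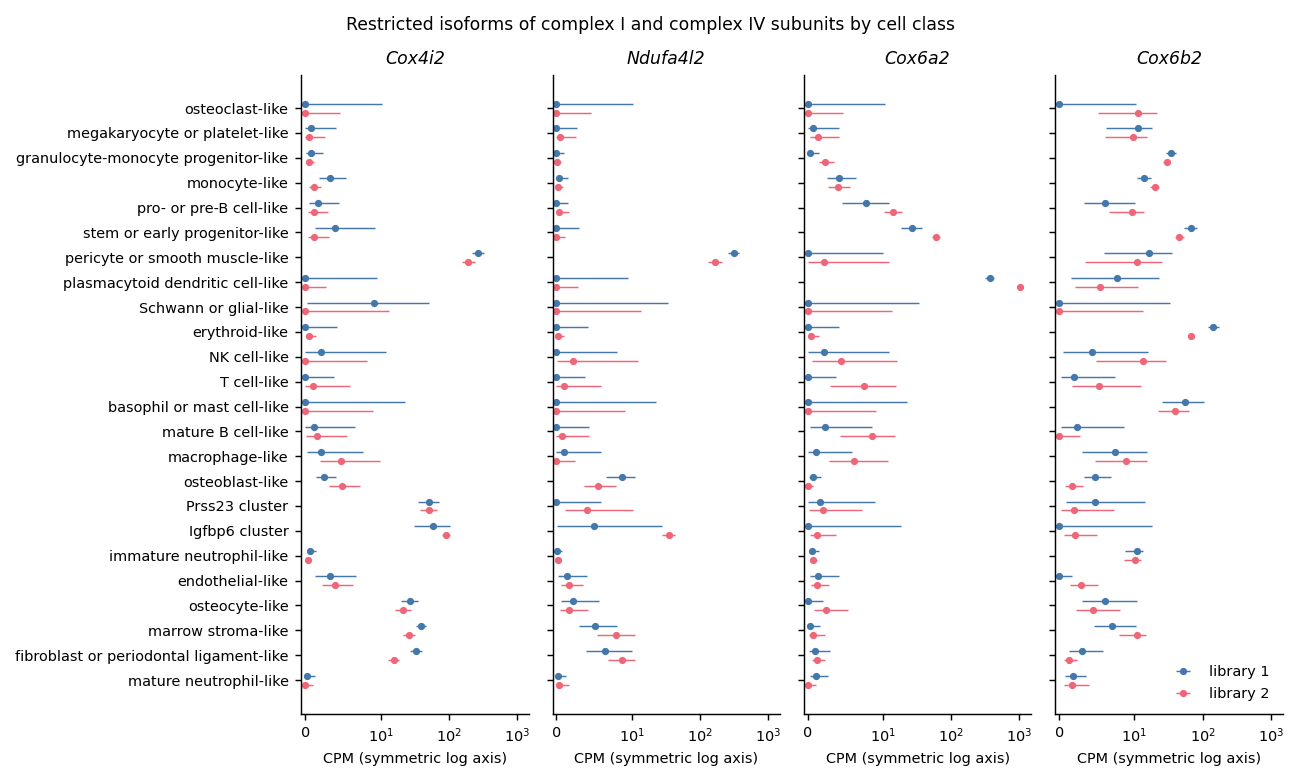
Level of 4 restricted isoforms in CPM (symmetric log axis, linear below 10) in 24 classes, with 1 colour per library and 95% Poisson intervals. Cox4i2, with 270 and 195 CPM, and Ndufa4l2, with 311 and 167 CPM, peak in pericyte or smooth muscle-like cells, Cox6a2 in plasmacytoid dendritic cell-like cells and Cox6b2 in erythroid-like cells.

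Other mitochondrial gene lists were read in the same classes and by the same call, against the same shares of all measured genes: 20.2% higher in osteoclast-like cells, 30.9% higher in the progenitors and 49.3% lower in mature neutrophil-like cells. Complex II and cytochrome c (Sdha, Sdhb, Sdhc, Sdhd, Cycs and Cyc1) were higher in osteoclast-like cells for 6 of 6 genes, and 4 of 6 were lower in mature neutrophil-like cells. Of 13 genes of the tricarboxylic acid cycle, which feeds the chain with electrons, 12 were higher in osteoclast-like cells and 10 lower in mature neutrophil-like cells. Of 76 measured genes of the mitochondrial ribosome 47 were higher in osteoclast-like cells, 63 in the progenitors, and 69 were lower in mature neutrophil-like cells. Among 19 carriers, pores and import proteins 16 were higher in osteoclast-like cells and 15 lower in mature neutrophil-like cells. Assembly factors of all complexes outside the Ndufaf set were higher for 10 of 19 in osteoclast-like cells and lower for 15 of 19 in mature neutrophil-like cells, with Cox17, a copper chaperone of complex IV, higher there.

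Glycolysis and oxidant defence followed other orders. Of 16 glycolysis genes 10 were higher in immature and 6 in mature neutrophil-like cells, where 16.7% and 17% of all measured genes were higher, and 1, Tpi1, was lower in the mature class. The glycolysis sum was highest in megakaryocyte-like cells in library 1, at 6382 CPM, and in the progenitors in library 2, at 7452 CPM, and lowest in erythroid-like cells at 1319 and 705 CPM. The oxidant defence and uncoupling list was highest in immature neutrophil-like cells, at 3292 and 2646 CPM, where 3 of its 7 measured genes (Sod2, Prdx5 and Ucp2) were higher and 1 (Prdx3) was lower, with a median log2 ratio of -0.022 and -0.30. Of 9 measured genes of mitochondrial biogenesis and mtDNA expression, 2 (Esrra and Twnk) were higher in osteoclast-like cells, near the share of 20.2% of all genes, and none in megakaryocyte-like cells. In mature neutrophil-like cells 6 were lower and Esrra was higher.

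Outside the members, log2 profiles of genes over the 24 classes were compared with that of the summed level of all members. The genes most like it were Cyc1, Samm50, Mdh2 and Vdac1. The lower of their correlations in the libraries was 0.936, 0.924, 0.916 and 0.900 in that order. Cyc1, the cytochrome c1 of complex III that the naming rule does not reach, stood at 344 and 413 CPM in osteoclast-like and 18.4 and 17.5 CPM in mature neutrophil-like cells. Samm50, which inserts proteins into the outer membrane, stood at 162 CPM in osteoclast-like cells of both libraries and 7.27 and 7.53 CPM in mature neutrophil-like cells. Mdh2 is an enzyme of the tricarboxylic acid cycle, and Vdac1 is the pore of the outer membrane.

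Since most members moved together across classes, their promoters were searched for the core motifs of factors known to bind such promoters. RefSeq promoters of the build GRCm38.p6, running from 250 bases before a start to 50 bases after it, were found for 74 of the 97 genes. The motifs were GCGCATGCG for NRF1, CCGGAAG for the ETS family (which includes GABP) and AAGATGGCG for YY1, each on either strand. The NRF1 core was in 10 of 74 members (13.5%) and in 1.95% of 27025 genes with such a window, the ETS core in 16 (21.6%, beside 9.93%) and the YY1 core in 8 (10.8%, beside 1.64%). At least 1 of them was in 28 members (37.8%, beside 12.7%). The genes set beside the members include those not expressed in these cells. The shares among measured genes were not computed, so the excess is not shown to be particular to respiratory chain genes. Below are the 120 bases before the start, 5′ to 3′ in the direction of the gene, with motif matches in capitals. They show the member with the largest ratio in osteoclast-like cells (Uqcr11), the 2 ATP synthase members with an NRF1 palindrome (Atp5me and Atp5mc2), and a start of Atp5pf with both an ETS and a YY1 core.
Uqcr11: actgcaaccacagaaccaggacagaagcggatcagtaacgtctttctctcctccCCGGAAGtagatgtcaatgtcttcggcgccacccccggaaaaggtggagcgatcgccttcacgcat
Atp5me: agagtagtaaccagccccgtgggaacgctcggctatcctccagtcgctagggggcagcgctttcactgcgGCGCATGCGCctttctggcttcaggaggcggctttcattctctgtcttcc
Atp5mc2: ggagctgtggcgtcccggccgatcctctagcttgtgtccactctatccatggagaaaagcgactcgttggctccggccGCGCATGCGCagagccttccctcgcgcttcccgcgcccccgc
Atp5pf: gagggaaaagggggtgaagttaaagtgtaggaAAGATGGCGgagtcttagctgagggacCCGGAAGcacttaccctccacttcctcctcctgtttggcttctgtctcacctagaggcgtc

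These stretches lie on the minus strand in GRCm38.p6, Uqcr11 at chr10:80406822-80406941, Atp5me at chr5:108434400-108434519, Atp5mc2 at chr15:102671048-102671167 and Atp5pf at chr16:84834977-84835096. The NRF1 core overlaps its own reverse complement in Atp5me and Atp5mc2, where the capitals run over 1 base more than the core. Of the pair with the same core, Atp5me was highest in megakaryocyte-like cells in both libraries, at 535 and 617 CPM, whereas Atp5mc2 was not highest in that class in either library. A match is a description of the letters and not of binding, and no match says only that these letters are not in the window.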

How the data were processed

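The authors deposited unfiltered matrices of UMI counts per gene and barcode, and processing was redone from these counts. Per the submitters' processing notes FastQC 0.11.9 and the builds GRCh38 and mm10 are named without a role; aligner and annotation: not given in the sources used here. Features without a symbol, 0.602% and 0.431% of UMIs, were left out. Cells reached the inflection of the barcode rank curve (1162 and 1173 UMIs), 200 genes and at most 20% mitochondrial UMIs. Scrublet marked 10 of 8923 cells in library 1, too few to have worked, so the top 5% by score (446) were removed there, and its own 187 calls were removed in library 2; doublets may remain. With scanpy 1.11.5, 2000 variable genes (members, other gene lists, mt-, ribosomal and sex-linked genes left out), 30 components, 15 neighbours and Leiden resolution 1 were used. A cluster was named if at least 3 markers and 50% of a list were raised 3-fold and at least 1 was among its 10 leading genes, the last condition added after seeing the clusters. Classes of at least 20 cells per library were ranked, levels under 0.5 UMIs being set to that for ratios. Named genes are, by rule, the 3 most abundant measured members of each complex, the 5 largest and 5 smallest ratios, isoforms with at least 20 UMIs and the 5 most alike non-members (1 is not reported here); Ndufaf4, Ndufb2, Ndufb3, Ndufb7, Ndufaf7, Cox7a2l, Atp5me and Atp5pf were added after their values were seen. The members and lists were chosen with earlier results of these data known. The call rule was tested on simulated counts with counting error only and 3-fold changes put into 1 class. All other classes shared 1 profile there, which real classes do not, so it does not show how the calls behave here.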

Additional observations from a re-analysis of the deposited data

How the results depend on the processing

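Under 14 other ways of processing and 2 more chosen after seeing the data (800 UMIs, median over members) no fold crossed 1. Counts of called genes have no direction to reverse. Single genes were followed in the class where they were highest, and the main folds were far from 1, so a reversal was unlikely beforehand. Osteoclast-like cells were highest and mature neutrophil-like cells lowest wherever both were ranked. At resolution 0.5 there were no osteoclast-like or marrow stroma-like classes, with a minimum of 50 cells no osteoclast-like class (megakaryocyte-like cells were highest in both cases), and when cells were classed by marker list no ranked marrow stroma-like class, so these gave no value. The fold of the summed level between osteoclast-like and mature neutrophil-like cells in libraries 1 and 2 was 8.80 and 9.12 without mt-, ribosomal, haemoglobin and immunoglobulin UMIs in the total, 9.49 and 9.95 with free RNA subtracted at 10%, 8.08 and 8.37 without assembly factors, isoforms and the most abundant members, 9.27 and 9.56 as a median over members, 7.16 and 7.24 at resolution 2.0, 7.32 and 7.52 by marker list, and 7.81 and 8.08 with a minimum of 800 UMIs. It was 7.33 in library 1 with up to 50% mitochondrial UMIs, and 8.05 in library 2 with doublets kept. The mt- ratio of mature neutrophil-like cells over the median class was 0.300 and 0.247 with cells thinned to 1000 UMIs, 0.324 and 0.275 with at most 10% and 0.330 and 0.322 with at most 50% mitochondrial UMIs. It was 0.377 and 0.312 with a minimum of 2000 UMIs, 0.320 and 0.299 with 800, 0.380 and 0.312 at resolution 2.0, 0.397 and 0.433 by marker list, and 0.250 and 0.160 with free RNA subtracted. Genes lower in marrow stroma-like cells numbered 10 with thinned cells, 8 with at most 50% mitochondrial UMIs, 7 with doublets kept or at resolution 2.0, 6 with 800 UMIs and 3 at a 2-fold limit. In the fibroblast class they numbered 9 with thinned cells, 33 by marker list and 2 at the 2-fold limit, which left 42 higher in megakaryocyte-like cells and 19 in the progenitors. Among these settings, shares of all measured genes were computed for the 2-fold limit only. Without the gene groups named above in the total, the folds from first to last cluster were 5.02 and 5.30 for neutrophils, 3.14 and 2.21 for erythroid clusters, and 1.46 in library 2 for B cells. Of all comparisons, those given above included, 86 stayed the same, within counting error for folds or within 1.5-fold for counts, and 48 moved. Of 192 values for 18 single genes none reversed and 44 moved beyond counting error. No paired analysis was possible because the labels give no groups. Intervals cover counting error only. The Schwann or glial-like class carries the least depth, with 109962 and 274516 UMIs in all.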
